A study of Mus musculus with 10 samples.

Results

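The interferon-inducible p200 family is a group of related mouse genes on chromosome 1. The 8 family members *Ifi211*, *Mndal*, *Ifi203*, *Ifi204*, *Ifi205*, *Ifi207*, *Ifi209* and *Ifi213* were examined here, out of 54532 genes measured by RNA sequencing of whole hearts. The family was selected because *Ifi211* was lower in the hearts of drug-treated mice, so its differences between the treatment groups are given as descriptions and support nothing by a test. All 10 hearts came from Rit1 M90I/+ mice, a model of Noonan syndrome in which 1 copy of the RAS-related gene *Rit1* carries a pathogenic variant. The allele was in the germline, after males with the conditional variant had been crossed to females of a deleter strain in which the CMV promoter drives Cre. From 4 weeks of age, 5 mice received trametinib, an inhibitor of the kinases MEK1 and MEK2 (MEKi), daily at 1 mg/kg over 20 weeks, and 5 received vehicle, a carboxymethylcellulose and Tween 80 solution. The trial used male and female littermates, but X-linked and Y-linked transcripts split these 10 hearts exactly as treatment did, as described below. No wild-type heart was among these samples, so every group carried the *Rit1* variant.

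Proteins of the p200 family, also called HIN-200 or PYHIN proteins, typically combine an amino-terminal pyrin domain with 1 or more HIN domains that bind DNA. Interferons raise transcription of their genes through the interferon-stimulated response element (ISRE), a DNA motif in many promoters of the pathway. The family is best known in macrophages and other leukocytes, where its members act in the sensing of DNA in the nucleus or cytosol, in inflammasome signaling, and in the control of transcription and growth. Mice have many more members than humans, and neighboring copies have exchanged and duplicated sequence.

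Mouse promoters from RefSeq (GRCm38.p6; 250 bases before to 50 bases after the annotated start) were matched by symbol for 7 of 8 members, all but *Ifi204*. The ISRE core, written GAAANNGAAA and searched on both strands as TTTCNNTTTC too, was present in 6 of these 7 members and absent from the window of *Ifi209*. It was found in 3.99% of all 27025 genes with a promoter (3.44% of 32851 promoters). The STAT dimer motif TTCNNNGAA, a palindrome known as GAS, was found in 0 of 7 members and in 9.55% of all genes. These letters describe the sequence only, and no binding was measured. The 60 bases around the core are shown for the 6 members because the cores that read GAAANNGAAA toward the gene had 2 spellings among them. Matches on the opposite strand are not shown, namely 1 in another *Mndal* promoter entry, 54 bases before its start, and 1 in *Ifi205* past its start. Another promoter entry of *Ifi203* had no ISRE core on either strand. Each sequence reads 5′ to 3′ toward the gene, with the core in capitals.
Ifi211: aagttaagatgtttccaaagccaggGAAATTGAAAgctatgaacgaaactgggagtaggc
Ifi205: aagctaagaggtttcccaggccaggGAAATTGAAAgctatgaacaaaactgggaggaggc
Ifi207: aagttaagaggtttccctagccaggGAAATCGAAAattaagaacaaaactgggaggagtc
Mndal: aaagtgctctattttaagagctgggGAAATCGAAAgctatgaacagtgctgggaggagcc
Ifi203: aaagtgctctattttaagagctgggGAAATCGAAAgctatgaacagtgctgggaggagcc
Ifi213: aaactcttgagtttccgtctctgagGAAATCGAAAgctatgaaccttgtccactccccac

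In GRCm38.p6, these windows lie on the minus strand at chr1:173913049-173913108 for *Ifi211*, chr1:174031855-174031914 for *Ifi205*, chr1:173741816-173741875 for *Ifi207*, chr1:173880189-173880248 for *Mndal*, chr1:173942493-173942552 for *Ifi203* and chr1:173599311-173599370 for *Ifi213*. The core shown began 35 to 41 bases before the annotated start in *Ifi203*, *Mndal*, *Ifi211* and *Ifi207*, 73 bases before it in *Ifi213* and 134 bases before it in *Ifi205*. The spelling GAAATTGAAA was the one shown for *Ifi211* and *Ifi205*, and it was present on either strand in 37 of the 27025 genes (0.137%). The other 4 members had GAAATCGAAA, which was present in 16 genes (0.0592%), 7 of them being these members and their relatives *Ifi206*, *Ifi208* and *Ifi214*. Aligned base by base without gaps, the window of *Ifi205* matched that of *Ifi211* at 54 of 60 positions. *Ifi207* matched it at 50, *Mndal* and *Ifi203*, whose windows are identical, at 41, and *Ifi213* at 30.

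Between 13647167 and 18474002 fragments were assigned to genes in each heart, and levels are the authors' fragments per kilobase of gene length, scaled to a library size (FPKM). The library size implied by the FPKM was not the assigned total. It was 14218190 against 15371692 assigned in vehicle heart 3, and 14416591 against 13647167 in vehicle heart 2. Fold changes are MEKi minus vehicle on the log2(FPKM + 0.1) scale, fitted with limma over the 12602 genes that averaged 0.5 FPKM or more, and they understate changes of low genes. The 8 cardiomyocyte markers summed to 15200 to 20800 FPKM in vehicle hearts and 15000 to 20500 FPKM in MEKi-treated hearts, and none was at 0. The X-linked transcript *Xist* averaged 5.86 ± 0.671 FPKM (SD, n = 5) under MEKi and had at most 2 fragments in any vehicle heart. The Y-linked gene *Ddx3y* was at 11.2 ± 0.714 FPKM in vehicle hearts and had 0 fragments in every MEKi-treated heart, which allows at most 3 fragments. These transcripts split the 10 hearts in the same way as treatment. For every difference given here, treatment and whatever separates hearts by *Xist* and *Ddx3y* cannot be told apart.

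*Ifi211*, the gene on which the family was chosen, encodes a short member related to the human myeloid nuclear differentiation antigen MNDA (ENSMUSG00000026536, chr1:173896345-173913046, minus strand, GRCm38). Its level was 2.80, 2.53, 4.29, 2.62 and 3.54 FPKM in vehicle hearts 1 to 5 and 1.31, 1.66, 1.53, 1.03 and 1.11 FPKM in MEKi-treated hearts 1 to 5. All 5 MEKi-treated hearts were below the lowest vehicle heart. The group means were 3.15 ± 0.752 and 1.33 ± 0.269 FPKM (SD, n = 5 each), so the MEKi mean was 57.9% lower, with a log2 fold change of −1.18 ± 0.18 (SE). These levels rest on 65 to 109 fragments in a vehicle heart and 31 to 51 in a MEKi-treated heart. Bulk tissue cannot tell fewer cells of a type that expresses the gene from less of its RNA per cell.

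*Ifi205*, whose protein has been linked to expression of the inflammasome adaptor Asc in macrophages, had the largest fall in mean of the 8 members (ENSMUSG00000054203, chr1:174011998-174031810, minus strand). It was at 1.81, 2.28, 5.57, 3.59 and 5.53 FPKM in vehicle hearts and at 1.27, 1.24, 0.815, 1.38 and 0.701 FPKM in MEKi-treated hearts. The groups did not overlap, although vehicle hearts 3 and 5 were far above vehicle hearts 1 and 2. The mean was 3.76 ± 1.76 FPKM in vehicle and 1.08 ± 0.302 FPKM in MEKi, 71.2% lower, with a log2 fold change of −1.61 ± 0.31 (SE). Without vehicle replicate 3 the log2 fold change was −1.44, and it was also −1.44 without vehicle replicate 5.

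The other 6 members had overlapping groups, and 5 of them had a lower mean in MEKi-treated hearts. *Ifi207*, linked to STING signaling, was at 2.41, 2.64, 3.84, 2.69 and 4.48 FPKM in vehicle hearts and at 1.86, 1.69, 2.96, 2.66 and 1.49 FPKM in MEKi-treated hearts (ENSMUSG00000073490, chr1:173723427-173741747, minus strand). Of the MEKi-treated hearts, 3 lay below the lowest vehicle heart, and the log2 fold change was −0.58 ± 0.22 (SE). *Ifi204*, a DNA sensor related to human IFI16, was at 1.59, 1.75, 3.52, 1.65 and 2.47 FPKM in vehicle hearts and at 1.92, 1.78, 1.72, 1.16 and 1.22 FPKM in MEKi-treated hearts (ENSMUSG00000073489, chr1:173747293-173766943, minus strand). Its means were 2.20 ± 0.818 and 1.56 ± 0.347 FPKM, a log2 fold change of −0.43 ± 0.23 (SE), and vehicle hearts 3 and 5 were again the highest.

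*Ifi203* and *Mndal*, which lie beside *Ifi211*, differed less between the groups. *Ifi203* ranged from 2.68 to 3.84 FPKM in vehicle hearts (median, 3.21) and from 2.01 to 3.81 FPKM in MEKi-treated hearts (median, 2.83), a log2 fold change of −0.25 ± 0.16 (SE) (ENSMUSG00000039997, chr1:173920407-173942672, minus strand). *Mndal*, a relative of MNDA as its name says, was at 5.93, 5.75, 3.64, 3.39 and 4.96 FPKM in vehicle hearts and at 3.65, 5.06, 4.17, 3.98 and 3.39 FPKM in MEKi-treated hearts (ENSMUSG00000090272, chr1:173849126-173942491, minus strand). Its log2 fold change was −0.20 ± 0.17 (SE), and vehicle hearts 1 and 2 were the only ones above the highest MEKi-treated heart.

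The remaining members were scarce. *Ifi209* was at 0.607 ± 0.265 FPKM in vehicle and 0.497 ± 0.0877 FPKM in MEKi (n = 5 each), from 20 to 53 fragments per heart, with a log2 fold change of −0.18 ± 0.27 (SE) (ENSMUSG00000043263, chr1:173630917-173647928, plus strand). *Ifi213* was at 0.139, 0.0507, 0.0823, 0.179 and 0.111 FPKM in vehicle hearts and at 0.188, 0.264, 0.299, 0.196 and 0.149 FPKM in MEKi-treated hearts (ENSMUSG00000073491, chr1:173566283-173599274, minus strand). It was the only member with the higher mean under MEKi, at 0.219 ± 0.0608 against 0.112 ± 0.0495 FPKM, and 1 MEKi-treated heart overlapped the vehicle range. The difference rests on 16 to 31 fragments per MEKi-treated heart against 5 to 17 per vehicle heart, and *Ifi213* was below the filter on low values, so its log2 fold change of 0.60 ± 0.24 (SE) comes from a fit of all genes above 0 in any heart.

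**Figure D1:**
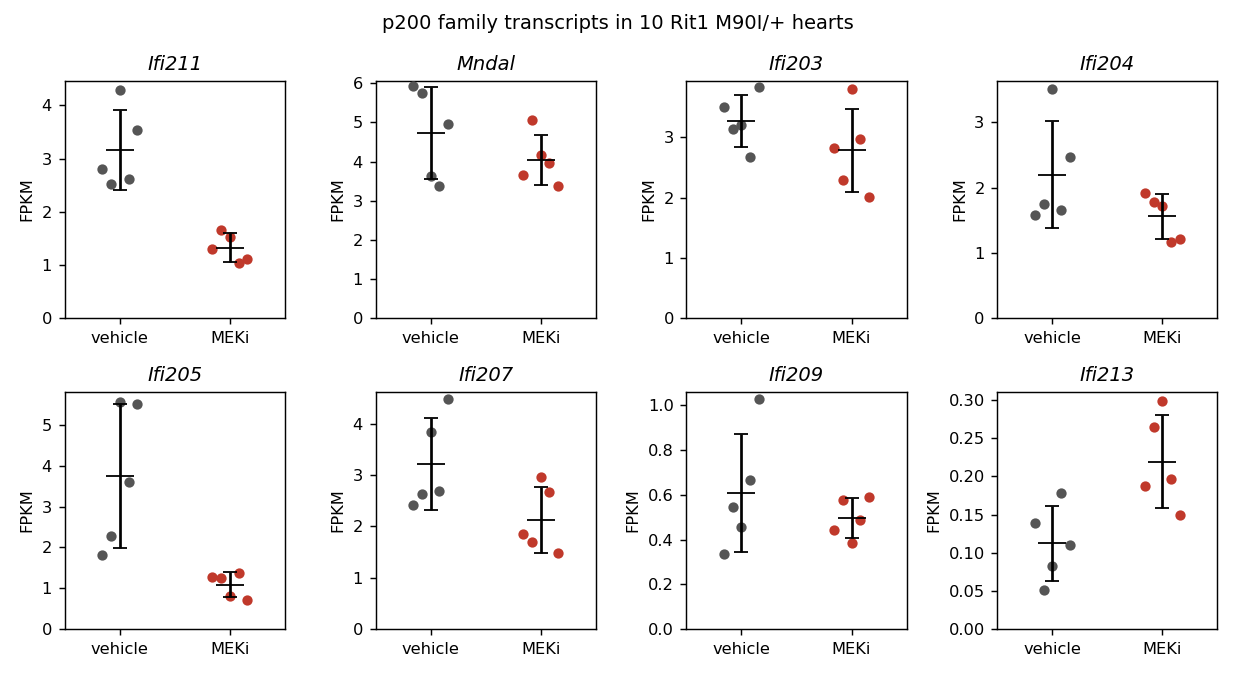
FPKM of the 8 p200 genes (y axes, each from 0) in 5 vehicle hearts (gray) and 5 MEKi-treated hearts (red), with 1 point per heart, the mean as a horizontal line and the SD as error bars. *Ifi211* and *Ifi205* have no overlap between the groups, the groups of the other 6 members overlap, and *Ifi213* alone has the higher mean under MEKi.

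Of the 8 members, 7 passed the filter on low values and all 7 were lower under MEKi, with a median of −0.43 for the log2 fold change. The median over all 12602 genes tested was 0.01. *Ifi211* was the 1 member with a limma adjusted p under 0.05, beside 0.0794% of all genes tested, and that call is the value it was selected on. The call held in 6 of 20 alternative settings. There were 2 members that had every MEKi-treated heart below every vehicle heart, beside 0.849% of all genes tested. Since the family was chosen on this comparison, nothing is read from these counts. With *Ifi213* included in a fit without the filter, the median of all 8 members was −0.34.

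Summed over the 8 members, the family was at 18.5, 18.7, 24.6, 17.5 and 26.0 FPKM in vehicle hearts and at 13.5, 14.6, 15.7, 13.9 and 10.6 FPKM in MEKi-treated hearts. The groups did not overlap. *Ifi211* and *Ifi205* together made up 24.9 to 40.1% of that sum in vehicle hearts (32.2% ± 6.65, SD) and 14.9 to 20.0% in MEKi-treated hearts (17.7% ± 2.0). The sum of the other 6 members was 14.1 ± 2.05 FPKM in vehicle and 11.2 ± 1.61 FPKM in MEKi, with overlapping ranges of 11.2 to 16.9 and 8.84 to 13.3 FPKM.

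The order of the levels differed between the groups. In vehicle hearts the means fell from *Mndal* (4.74 FPKM) through *Ifi205*, *Ifi203*, *Ifi207*, *Ifi211* and *Ifi204* to *Ifi209* and *Ifi213*. The ranges of all neighbors from *Mndal* to *Ifi204* in this order overlapped, whereas *Ifi209* lay below *Ifi204* and *Ifi213* below *Ifi209* in every heart. In MEKi-treated hearts the order was *Mndal* (4.05 FPKM), *Ifi203*, *Ifi207*, *Ifi204*, *Ifi211*, *Ifi205*, *Ifi209* and *Ifi213*, so *Ifi205* was at place 2 in vehicle and place 6 in MEKi. *Ifi205* exceeded *Ifi203* in 3 of 5 vehicle hearts. *Ifi211* was above *Ifi204* in all 5 vehicle hearts and below it in all 5 MEKi-treated hearts. Among neighbors in the MEKi order, the ranges over hearts overlapped except where *Ifi209* and *Ifi213* met the member above. Within each of the 5 MEKi-treated hearts, however, *Mndal* was also above *Ifi203* and *Ifi203* above *Ifi207*.

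The members span 465.5 kb of chromosome 1 (chr1:173566283-174031810), and *Ifi211* lies within the span of *Mndal* on the same strand, with no exon in common. The 2 members with separated groups were not neighbors, since *Ifi203* lies between *Ifi211* and *Ifi205*. Of the relatives in or near this stretch that are not members, *Ifi203-ps*, a pseudogene, was the 1 gene that passed the filter, at 1.50 ± 1.02 FPKM in vehicle and 0.892 ± 0.311 FPKM in MEKi (log2 fold change, −0.55 ± 0.37, limma adjusted p = 0.76). *Aim2*, whose protein starts an inflammasome when it meets cytosolic DNA, was at 0.483 ± 0.0754 and 0.448 ± 0.169 FPKM, from 17 to 41 fragments. In vehicle and MEKi, *Ifi208* was at 0.251 ± 0.167 and 0.248 ± 0.0718 FPKM and *Ifi206* at 0.268 ± 0.0860 and 0.176 ± 0.120 FPKM. For *Ifi214* no heart had more than 3 fragments, and *Ifi202b* was listed at 0 in all 10.

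**Figure D2:**
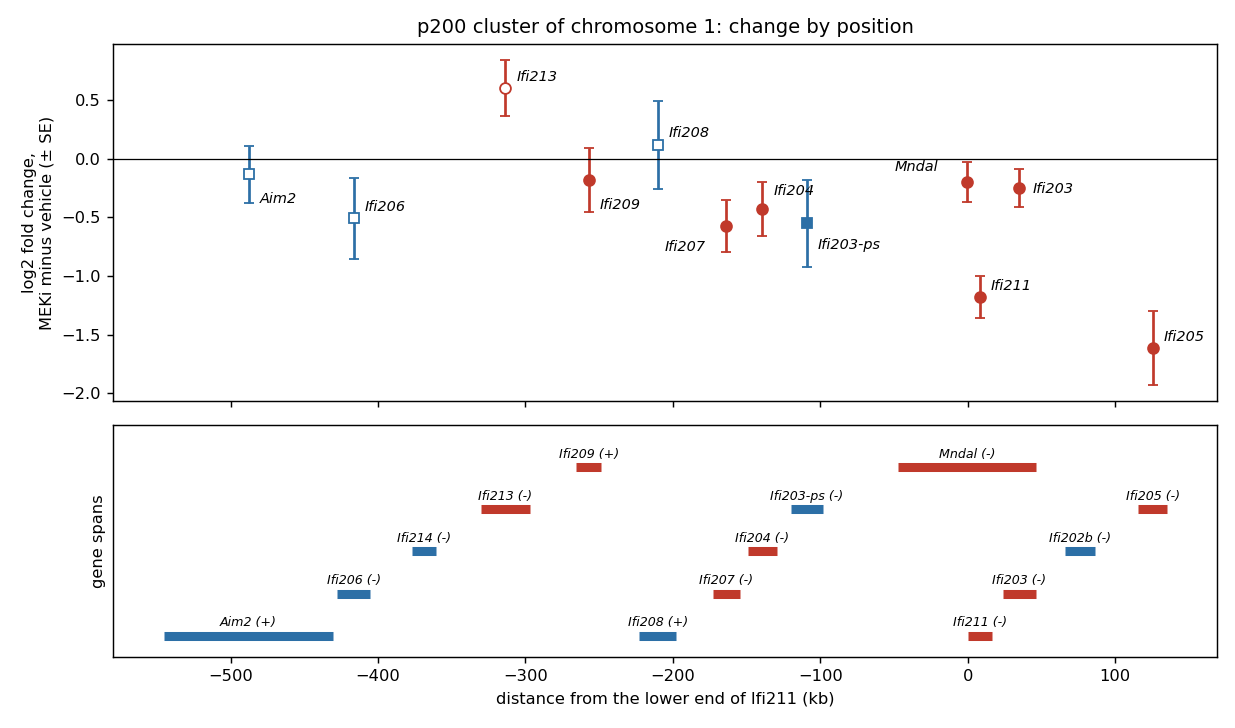
Upper panel, log2 fold change of MEKi minus vehicle with its SE (y axis) at the middle of each p200 gene (x axis, kb from the lower end of *Ifi211*), with members in red, relatives in blue and genes below the filter as open symbols. Lower panel, gene spans with their strand. The 2 lowest points, *Ifi211* and *Ifi205*, are separated by *Ifi203*, which was at −0.25.

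Other genes of the region gave little to compare. Within 1 Mb of the family lie 62 genes that are not members, of which 39 were listed at 0 in all hearts and 3 passed the filter, *Ifi203-ps* among them. The phosphatase gene *Dusp23* was at 8.76 ± 2.43 FPKM in vehicle and 9.47 ± 1.58 FPKM in MEKi (log2 fold change, 0.14 ± 0.19, limma adjusted p = 0.902).

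Family members share long identical stretches, and reads from those stretches cannot be placed in 1 gene with certainty. In the transcripts of GENCODE M21, 72.8% of all 50-base windows of *Ifi211* also occurred in another p200 gene, and 44.7% occurred in *Ifi205*. For windows of 100 bases, the shares were 56.9% and 37.2%. The longest run in common was 495 bases between *Ifi211* and *Ifi205*, followed by 306 bases between *Ifi211* and *Ifi204*. Seen from the longer relatives the shares were smaller, as 18.6% of the 50-base windows of *Ifi205* and 19.2% of those of *Ifi204* occurred in another p200 gene. *Ifi207* had the lowest share, at 5.39%, and *Ifi209* shared 33.4%, all with *Ifi214*. Exons overlapped those of another gene over 155 bases in *Mndal* (4.27%) and 37 bases in *Ifi203* (0.552%), and in no other member.

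How the authors' counting treated a read that fits several genes is not given in the sources used here. The level of *Ifi211* is therefore uncertain, since reads of its shared stretches may have been dropped or assigned to a relative. *Ifi205* has most of its sequence to itself at these lengths, but 18.5% of its 50-base windows occurred in *Ifi211*. The levels of *Ifi211* and *Ifi205* may therefore not be independent. The part of the shared sequence in the difference of either gene was not tested.

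**Figure D3:**
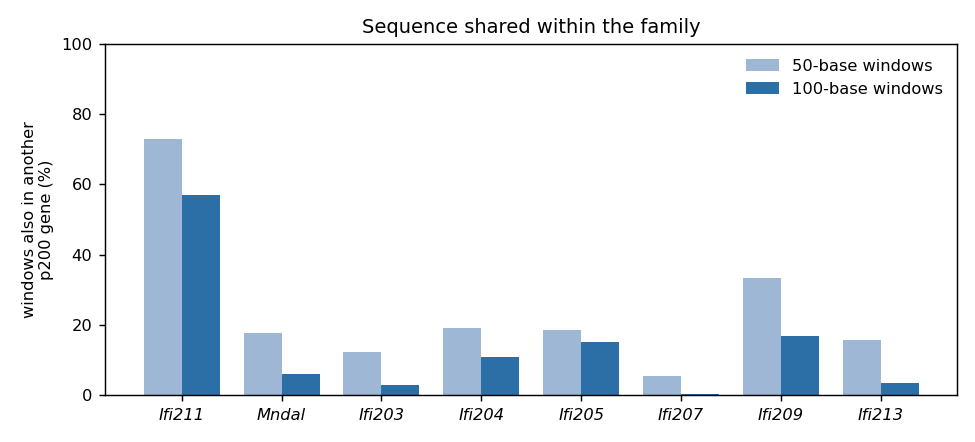
Percentage of the 50-base windows (light) and 100-base windows (dark) in the transcripts of each member that also occur in another p200 gene. *Ifi211* reaches 72.8% and 56.9%, and the other members stay at or below 33.4%.

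Across hearts, the members did not all move together. After the group mean was taken from each value, the Pearson correlation of log2(FPKM + 0.1) between 2 members over the 10 hearts was above 0 in 16 of the 21 pairs of the 7 members that passed the filter, with a median of 0.255. It ranged from −0.389 for *Mndal* and *Ifi205* to 0.909 for *Ifi211* and *Ifi204*. *Ifi203* and *Ifi207* reached 0.767 and *Ifi204* and *Ifi205* 0.652, whereas *Ifi211* and *Mndal* were at 0.008. The share above 0 among pairs of other genes was not computed, so nothing is read from the count of pairs. These values describe 10 hearts whose labels give no preparation batch, and *Ifi211* and *Ifi204* share sequence as given above.

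Of the 12601 other genes, those whose levels were most like *Ifi211* over the 10 hearts were *Sdr42e1* (r = 0.934), *Uty* (0.919), *Hsd11b1* (0.917), *Ddx3y* (0.913) and *Eif2s3y* (0.912), of which *Uty*, *Ddx3y* and *Eif2s3y* are Y-linked. Each of them had vehicle and MEKi groups without overlap. *Ifi211* was chosen for its own difference between the groups, so this order mainly repeats that split and nothing is read from it. *Ifi205* stood at place 13 (0.885), followed among the members by *Ifi204* (0.789), *Ifi207* (0.713), *Ifi203* (0.508), *Mndal* (0.319) and *Ifi209* (0.238). With the group means taken out, the list was *Pdia3* (0.955), *Pde7a* (0.917), *Ifi204* (0.909), *Pdia4* (0.903) and *Rpn1* (0.896), and *Ifi205* stood at place 780 (0.528). *Pdia3* and *Pdia4* encode protein disulfide isomerases of the endoplasmic reticulum, and *Rpn1* a subunit of the oligosaccharyltransferase there. These are the highest of 12601 correlations over 10 hearts, among which high values can arise by chance. A common theme was not tested, and nothing is read from this list either.

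Interferon-stimulated genes, which share the ISRE-driven pathway with the family, did not pass the test. Of 40 listed, 36 were tested, 25 were lower and 11 higher under MEKi, with a median of −0.09 for the log2 fold change. None of the 36 had an adjusted p under 0.05 by limma or by limma's voom method on fragments recovered from the FPKM, and 2 and 3 had an unadjusted p under 0.05. Of all 12602 genes tested, 960 by limma and 975 by voom had an unadjusted p under 0.05. By limma, 6035 of them were lower and 6567 higher under MEKi. These counts are the background for every list below. *Oas2*, an antiviral oligoadenylate synthetase, had the lowest adjusted p, with 2.13 ± 0.584 FPKM in vehicle and 1.21 ± 0.242 FPKM in MEKi, without overlap (log2 fold change, −0.75 ± 0.19, limma adjusted p = 0.318). Its paralog *Oas1a* was at 2.74 ± 0.522 and 2.01 ± 0.292 FPKM (−0.42 ± 0.15, adjusted p = 0.55). Other listed genes lay on both sides of 0. *Isg15*, a ubiquitin-like protein, was at 14.4 ± 9.15 and 10.9 ± 2.46 FPKM (−0.24 ± 0.32, adjusted p = 0.901), and *Ifit3* was at 7.11 ± 1.42 and 8.57 ± 1.28 FPKM (0.28 ± 0.15, adjusted p = 0.713). *Ifitm3*, which blocks virus entry, was at 180.0 ± 40.1 and 141 ± 20.8 FPKM (−0.34 ± 0.16, adjusted p = 0.664). Values near 0 were those of *Ifit1* at 2.83 ± 0.676 and 2.90 ± 0.397 FPKM (0.05 ± 0.16, adjusted p = 0.961) and *Irf7*, a transcription factor of the response, at 5.64 ± 1.41 and 5.50 ± 0.824 FPKM (−0.01 ± 0.18, adjusted p = 0.993).

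Upstream of the family, 11 of 13 genes for interferon ligands, receptors and JAK-STAT components were tested, with 3 lower, 8 higher and a median of 0.09. None was called by limma or voom, with 2 at an unadjusted p under 0.05 in each. *Ifnar2*, a chain of the type I interferon receptor, was at 5.38 ± 0.594 FPKM in vehicle and 6.46 ± 0.532 FPKM in MEKi (log2 fold change, 0.26 ± 0.10, limma adjusted p = 0.563). The ligand genes were scarce, with *Ifng* at 0.029 and 0.027 FPKM and *Ifnb1* listed at 0 in all hearts.

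In the DNA sensing and inflammasome pathway, 9 of the 14 listed genes present were tested, and 8 were lower with a median of −0.20. None was called by limma or voom, with 2 at an unadjusted p under 0.05 in each. *Tmem173*, which encodes the adaptor STING downstream of IFI16-type sensors, was at 3.43 ± 0.797 FPKM in vehicle and 2.19 ± 0.563 FPKM in MEKi (log2 fold change, −0.64 ± 0.20, limma adjusted p = 0.463). *Il1b*, the cytokine that inflammasomes process, was at 0.909 ± 0.453 and 0.327 ± 0.226 FPKM (−1.28 ± 0.46, adjusted p = 0.548). *Pycard*, which encodes Asc, was at 2.71 ± 0.597 and 2.60 ± 0.574 FPKM (−0.05 ± 0.18, adjusted p = 0.963).

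**Figure D4:**
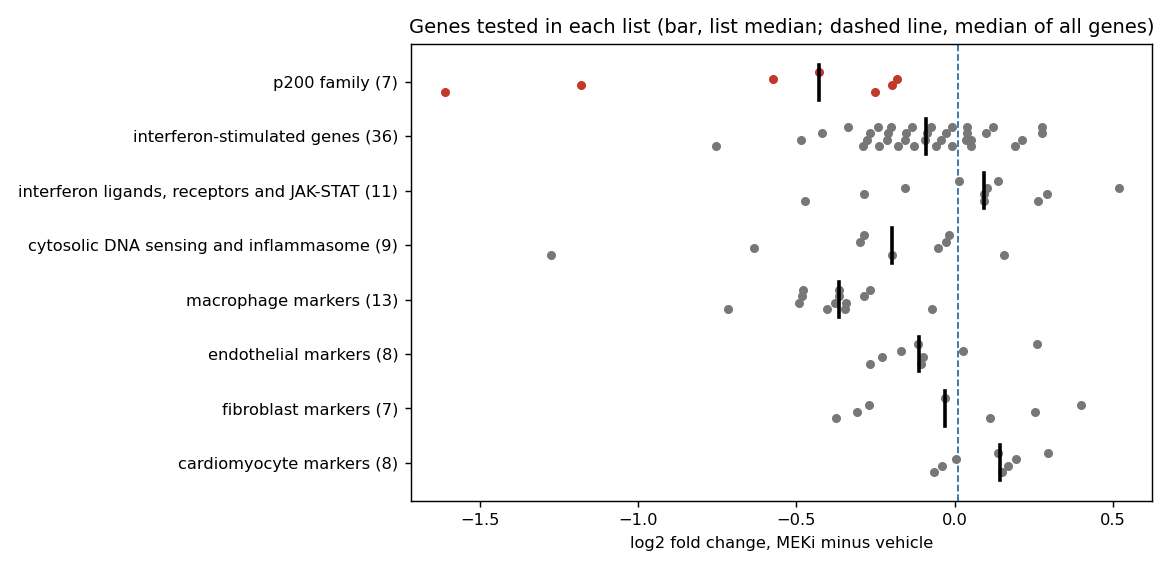
Log2 fold change of MEKi minus vehicle (x axis) for each gene tested in the p200 family (red) and in 7 other lists (gray; number of genes in parentheses), with 1 point per gene, the list median as a black bar and the median of all genes as a dashed line. The family median was −0.43, the macrophage median −0.36 and that of interferon-stimulated genes −0.09.

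Macrophage markers moved in the same direction as the family. All 13 markers were lower under MEKi, and the median of their log2 fold changes was −0.36. None was called by limma or voom, and 5 and 6 had an unadjusted p under 0.05, beside 960 and 975 of all 12602 genes tested. Their summed level was 515, 567, 468, 497 and 799 FPKM in vehicle hearts and 408, 448, 467, 389 and 377 FPKM in MEKi-treated hearts. The groups did not overlap, but vehicle heart 3 and MEKi-treated heart 3 were almost level. *Lyz2*, the macrophage and neutrophil lysozyme, was at 281 ± 67 FPKM in vehicle and 199 ± 22 FPKM in MEKi (−0.48 ± 0.15, limma adjusted p = 0.456), and no marker was at 0. *C1qa*, *C1qb* and *C1qc* averaged 102, 98.0 and 41.1 FPKM in vehicle, and no other marker averaged above 11.0 FPKM there. The sum therefore mainly follows *Lyz2* and the C1q genes. Of the 13 markers, *Lyz2* was the 1 whose groups did not overlap. Vehicle heart 3, with the lowest macrophage sum of its group, had the highest level of *Ifi211* (4.29 FPKM), *Ifi205* (5.57 FPKM) and *Ifi204* (3.52 FPKM). Vehicle heart 5, with the highest macrophage sum, had the next highest levels of these genes (3.54, 5.53 and 2.47 FPKM). Vehicle heart 3 also had the highest mitochondrial share of fragments of the 10 hearts (35.0%). Its interferon-stimulated sum was the lowest of them (268 FPKM). The part of macrophage RNA in the family's differences was not tested.

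**Figure D5:**
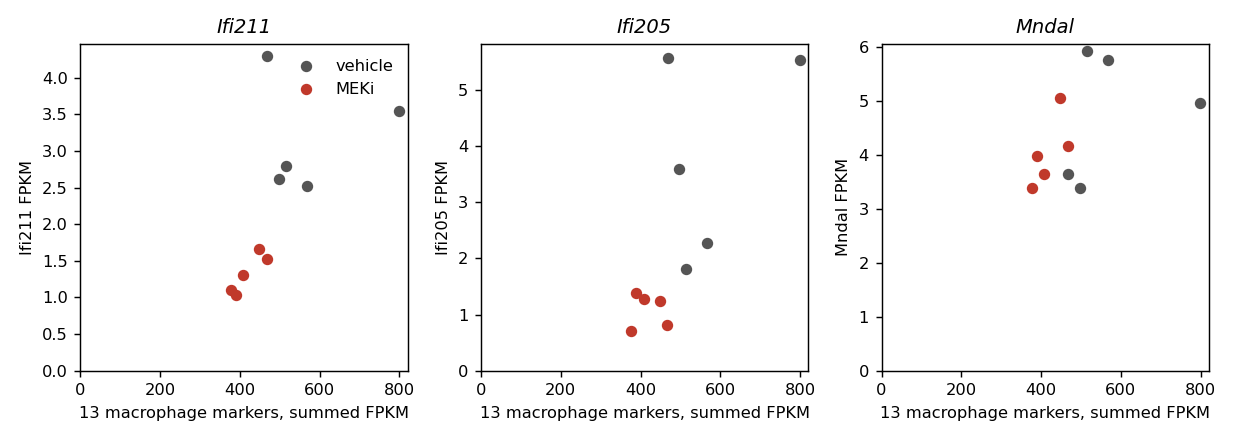
FPKM of *Ifi211*, *Ifi205* and *Mndal* (y axes) against the summed FPKM of 13 macrophage markers (x axis), with 1 point per heart, vehicle in gray and MEKi in red. The groups do not overlap on the x axis, where the sum mainly follows *Lyz2* and the C1q genes. On the y axes the groups overlap for *Mndal* but not for *Ifi211* and *Ifi205*.

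For the other cell types, the summed marker levels of the 2 groups overlapped. The 9 monocyte, neutrophil and dendritic cell markers summed to 10.9 to 88.2 FPKM in vehicle hearts and 6.29 to 18.9 FPKM in MEKi-treated hearts, and 3 of 4 tested were lower. The median log2 fold change of these 4 was −0.69, further below 0 than that of the macrophage markers. None was called by limma or voom, and 1 and 2 had an unadjusted p under 0.05. *S100a8*, a calprotectin subunit of neutrophils, was at 7.73 ± 6.24 and 1.93 ± 1.66 FPKM (log2 fold change, −2.09 ± 0.60, limma adjusted p = 0.425). *S100a9*, *Ccr2* and *Siglech* were also lower, whereas *Xcr1*, *Ly6c2*, *Plac8*, *Itgax* and *Flt3* were higher. *Xcr1*, below the filter, was at 0.132 ± 0.0903 and 0.369 ± 0.0975 FPKM (log2 fold change, 1.08 ± 0.30). Lymphocyte markers summed to 1.35 to 8.71 FPKM in vehicle and 4.12 to 7.22 FPKM in MEKi. The 3 tested had a median log2 fold change of −0.15, with 0 at an unadjusted p under 0.05 by limma or voom. Endothelial, fibroblast, adipocyte and cardiomyocyte medians were −0.11, −0.03, 0.09 and 0.14, and no gene of these lists was called by limma or voom (0, 2, 0 and 0 at an unadjusted p under 0.05 by limma and 1, 3, 0 and 1 by voom). Vehicle heart 5 had the highest sums for macrophage markers, for monocyte, neutrophil and dendritic cell markers, and for fibroblast markers. Without vehicle heart 5 the log2 fold change was −1.13 for *Ifi211* and −1.44 for *Ifi205*.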

How the data were processed

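RNA was extracted from 5 vehicle and 5 MEKi-treated Rit1 M90I/+ hearts, labeled as biological replicates, and poly(A)-selected before random-primed cDNA synthesis. The authors deposited 1 table of FPKM for all hearts, with gene lengths and coordinates. The submitters' processing notes name fastp, STAR 2.5, HTSeq 0.6.1 and mm10. Settings, strandedness and annotation are not given in the sources used here. Of 54409 genes whose identifier is in GENCODE M21, 98.3% have its coordinates.

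In every heart, each FPKM times length (100%) was a whole multiple of 1 step (tolerance 0.1), which gave the fragments. Totals were 13647167 to 16659254 per vehicle heart and 14868373 to 18474002 per MEKi-treated heart. Limits of 3 fragments cover counting error only.

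For genes that averaged 0.5 FPKM or more, log2(FPKM + 0.1) was fitted in R 4.3.3 by limma 3.58.1 (lmFit, eBayes with trend), two-sided, with Benjamini-Hochberg adjustment over all genes tested and a threshold of 0.05. The fit was tested on simulated data. Summaries used Python 3.11.15, numpy 2.4.6, pandas 2.3.3 and matplotlib 3.10.9. Alternatives were 2 other pseudocounts, 2 other filters, a TPM scale, quantile normalization, eBayes without a trend, voom on fragments, the replicate number as a block, X, Y and mitochondrial genes left out, and each heart left out in turn.

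Members and lists were chosen with earlier results of these data known. The genes named are the members, genes of a list where it is discussed, neighbors past the filter, the 5 genes most correlated with *Ifi211* by either measure, *Xist* and *Ddx3y*, and 1 neighbor past the filter is not reported here. Motifs, shared windows and exon overlaps were computed from RefSeq promoters and GENCODE M21 transcripts. Of 10 relatives listed, 6 were present under the listed name. *Pyhin1*, *Mnda*, *Pydc3* and *Pydc4* are RefSeq synonyms of *Ifi209*, *Ifi211*, *Ifi208* and *Ifi213*. Sex was not modeled. The labels used give none, and *Xist* and *Ddx3y* split the hearts exactly as treatment did, so no fit could separate that split from treatment.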

Additional observations from a re-analysis of the deposited data

Results flagged for a closer look

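Of 48 groups of 5 hearts examined for a heart far from the others, 4 were picked out, where chance gives about 2.4. No heart was picked out for any of the 8 p200 members. For interferon ligands, receptors and JAK-STAT genes, vehicle heart 1 had a summed level of 94.1 FPKM, below 106 to 111 FPKM in the other vehicle hearts. Vehicle heart 5 was highest in its group for monocyte, neutrophil and dendritic cell markers, at 88.2 FPKM against 10.9 to 31.6, and for fibroblast markers, at 241 FPKM against 153 to 174. MEKi-treated heart 5 was lowest for endothelial markers, at 144 FPKM against 175 to 183.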

How the results depend on the processing

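Among all genes tested, 10 were called, and 16 of 20 alternatives stayed within 1.5 times that number. When X, Y and mitochondrial genes were removed, limma called 0 genes, with 924 at an unadjusted p under 0.05, and no other tool was run on that subset. With 1 heart left out, the count ranged from 5 to 13, at 5 without vehicle replicate 2 and 6 without vehicle replicate 5. Ifi211, on which the family was chosen, kept its call in 6 of 20 alternatives, over which its adjusted p ranged from 0.0362 to 0.156. It was lost with no filter, no trend, voom, removal of X, Y and mitochondrial genes, the block, and in 9 of 10 fits without 1 heart. The cause was not tested.

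The replicate number as a block gave 4 genes called. Same-numbered hearts correlated at −0.154 to −0.021 and 0 hearts correlated best with their own number. No pairing by number was seen over all genes tested, but this check cannot exclude a weaker one.

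The log2 fold changes of the 7 members tested kept their sign under every alternative that tested them, from −1.26 to −0.83 for Ifi211, −1.83 to −1.12 for Ifi205 and −0.31 to −0.11 for Mndal. A member's value cannot change under the other filters, no trend, the block, or removal of X, Y and mitochondrial genes. Those alternatives therefore say nothing about its stability. The family median ranged from −0.52 to −0.28. Ifi209 was not tested in 2 of 20. With 5 hearts per group, levels under 1 FPKM rest on few fragments.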
